A study of Mus musculus with 4 samples.

Results

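Collagens are main structural proteins of the aortic wall, and 44 gene names of the array were collagen chain genes, out of 37074 gene names in all. They were taken as every probe that was not a control and whose gene name was Col, a number, the letter a and a number, with the brightest tested probe of a name standing for the gene. The 44 members had 91 probes and were grouped as 11 fibrillar, 6 basement membrane, 9 FACIT (fibril-associated, with interrupted triple helices), 6 beaded and 12 other chains. Of these, 40 were called well above background on 2 or more of the 4 arrays and were tested with the other genes, 22497 in all, and 36 were above background on all 4. Each of 4 one-colour (Cy3) Agilent arrays measured RNA of abdominal aorta from male mice of 12 weeks, collected 4 weeks after CaPO4, a calcium salt used to injure the vessel. The arrays W2 and W3 are labelled wild type, and the arrays K4 and K5 are labelled SR-A1-/-. SR-A1 is a scavenger receptor of macrophages, encoded by Msr1. All 4 had CaPO4, the labels name neither the allele nor the strain, and no aorta without CaPO4 was analysed here. The comparison asks which collagen genes differ between injured aortas of the groups so labelled.

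A collagen molecule is a triple helix of 3 chains, in which glycine opens each unit of a repeat written Gly-X-Y. Fibrillar chains build the tensile fibrils of the aortic media and adventitia, with types I and III the most abundant. Type IV chains form the sheet of the basement membrane around smooth muscle cells and under the endothelium. FACIT chains sit on fibril surfaces, and the beaded chains, all of type VI, assemble into microfilaments around cells. Chains are hydroxylated, folded, exported, trimmed and cross-linked by enzymes that the cell makes separately.

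The glycine repeat can be read in the array's own probes, and 4 of the 91 member probes, each of 60 bases, carry GGN, the glycine codon, at the start of each Gly-X-Y unit along their whole length. They are shown because they are the stretch of these genes that makes the family what it is, with the GGN codons in capitals and positions on mm9 as the array files give them. A span longer than the probe means that the probe crosses a splice junction.
Col15a1, chr4:47283786-47283845, plus strand: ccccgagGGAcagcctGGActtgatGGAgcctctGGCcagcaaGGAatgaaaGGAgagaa
Col11a2, chr17:34189287-34189453, plus strand: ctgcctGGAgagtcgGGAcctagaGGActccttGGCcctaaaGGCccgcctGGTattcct
Col5a3, chr9:20590066-20590795, minus strand: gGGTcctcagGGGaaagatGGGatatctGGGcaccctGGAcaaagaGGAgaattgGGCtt
Col6a3, chr1:92689602-92690594, minus strand: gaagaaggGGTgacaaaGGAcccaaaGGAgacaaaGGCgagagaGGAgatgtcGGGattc

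Levels throughout are log2 of the processed signal minus the array's own 75th percentile, so 0 is the signal that 75% of probes stay under. That percentile was 132 on W2, 220 on W3, 245 on K4 and 133 on K5 before scaling, which makes W2 and K5 a pair of low signal and W3 and K4 a pair of high signal, with 1 array of each label in each pair. The share of the 56605 probes called well above background ran from 57.6% to 62.6%. Msr1 went against the labels: its probe at base 3231 read -5.30 on W2, -2.10 on W3, -1.26 on K4 and -2.09 on K5. Its other probe, at base 624, read -6.40, -2.12, -1.50 and -1.38. Both probes were called above background on K4, K5 and W3, and neither was on W2. A probe outside the deleted stretch would check nothing, so each direction below refers to the labels alone. All 10 smooth muscle, 12 fibroblast and 10 endothelial markers were above background on every array. The same held for all 10 skeletal muscle, 10 macrophage and 8 Schwann cell markers, so these calls do not single out the tissue. Markers of tissues around the aorta varied in level. In linear units of the array's 75th percentile, the summed level of the 8 white adipocyte markers was 393, 667 and 619 on W2, W3 and K4 and 29.3 on K5. The sum of 10 skeletal muscle markers was 1310 and 419 on W2 and W3 against 150 and 244 on K4 and K5, and that of 10 macrophage markers was 170 and 399 against 304 and 301. Of these macrophage markers 9 were above 0 in the difference between labels, with a median of 1.16. An unadjusted limma p under 0.05 was found for 5, all higher on the arrays labelled SR-A1-/- and with groups apart. Over all genes 3.84% had such a p in that direction, and 16.1% had groups apart in it. Of the skeletal muscle markers 9 were below 0 and 1 above, with a median of -1.96. On the lower side 5 had an unadjusted limma p under 0.05 (2.45% of all genes) and 7 had groups apart (13.7%). The part of these marker lists in the collagen results was not tested. In whole tissue, fewer cells of a type and less RNA per cell cannot be told apart. The series text speaks of independent experiments, but no label says that the arrays of a group are different animals. The p-values therefore cover the spread between these samples alone, which may be technical.

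No collagen gene passed an adjusted p of 0.05 in limma, as for all 22497 genes (0%), and the smallest adjusted p of a member was 0.377, for Col24a1. At an unadjusted limma p under 0.05 there were 4 of 40 members, against 6.29% of all genes (3.84% higher and 2.45% lower). Col6a5 and Col25a1 were higher and Col24a1 and Col18a1 lower on the arrays labelled SR-A1-/-. Col24a1 and Col25a1 passed the filter only through the 2 arrays of the label where they were higher, so the filter itself favoured a difference. With all 4 arrays required above background, 2 of 36 members had such a p, against 5.89% of all genes. The groups did not overlap in 18 of 40 members, 11 higher and 7 lower, against 29.8% of all genes (16.1% higher and 13.7% lower). With all 4 arrays required above background it was 15 of 36, against 28.8%. An exact permutation test of 2 arrays against 2 cannot go below a two-sided p of 0.333. Differences are log2 of the arrays labelled SR-A1-/- minus those labelled wild type, ± the limma standard error from 2 arrays a group. Over the 40 members the median difference was 0.06, with 22 above 0 and 18 below, and over all genes it was -0.01, with 49.3% above 0 and 50.7% below. In 24 members the difference was under 0.5 in either direction. The class medians were 0.64 for beaded, 0.37 for FACIT, 0.00 for fibrillar, -0.04 for other and -0.24 for basement membrane chains. At the glycine-repeat probes shown above the differences were -0.87 ± 0.45 for Col15a1, 0.00 ± 0.37 for Col11a2, -0.08 ± 0.58 for Col5a3 and 0.20 ± 0.55 for Col6a3.

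**Figure D1:**
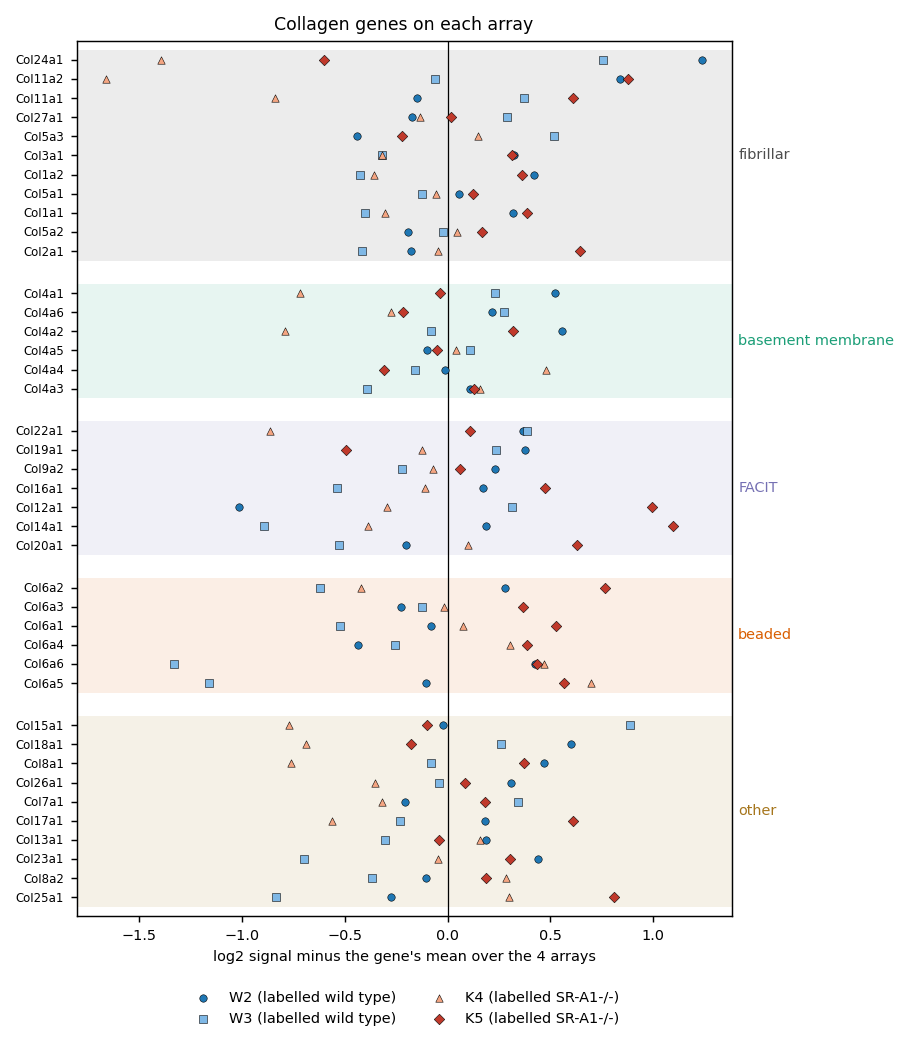
Level of each of the 40 tested collagen genes on each array, as log2 signal minus the gene's mean over the 4 arrays, grouped by class. For Col3a1, Col1a1 and Col1a2 the arrays W2 and K5 lie together on the right and W3 and K4 together on the left, while for Col6a5 and Col6a1 both arrays labelled SR-A1-/- lie right of both arrays labelled wild type.

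All 6 beaded chain genes read higher on the arrays labelled SR-A1-/- on average, from 0.34 to 1.26. In 5 of the 6 the groups did not overlap, against 16.1% of all genes in that direction. For Col6a6 they were only just apart, for Col6a3 on the brightest probe alone, and Col6a4 was dim and not well above background on W2. Col6a5, an alpha chain that can take the place of the alpha 3 chain of type VI collagen, had the smallest p of the class. On its tested probe (NM_001167923, chr9:105759441-105759500) it read 4.92 on W2 and 3.86 on W3 against 5.72 on K4 and 5.59 on K5. W3 was the low array, and both arrays labelled SR-A1-/- lay above both of the others. The difference was 1.26 ± 0.43, with a 95% interval of 0.15 to 2.38 (limma adjusted p = 0.717). Without W2 it was 1.79, and without W3 it was 0.74. Its other 2 probes, which lie elsewhere in the gene, gave 1.17 ± 0.36 and 1.29 ± 0.47.

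Col6a1, one of the main chains of every common type VI molecule, read 6.62 on W2, 6.18 on W3, 6.78 on K4 and 7.23 on K5. The groups did not overlap, although K4 lay only slightly above W2, and the difference was 0.60 ± 0.34 (limma adjusted p = 0.987). It was 0.60 in the low-signal pair and 0.60 in the high-signal pair. Col6a3, the chain that carries the long amino-terminal extension, read 4.48 and 4.58 against 4.69 and 5.07, a difference of 0.35 ± 0.30. Its other 2 probes gave -0.09 ± 0.45 and 0.20 ± 0.55, so the separation of the groups was seen on the brightest probe alone. Col6a2, the partner of Col6a1, read 4.10 and 3.20 against 3.40 and 4.59, with overlapping groups and a difference of 0.34 ± 0.55 (0.17 ± 0.33 and 0.29 ± 0.41 on its other probes).

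Col6a4 and Col6a6 like Col6a5 encode alternatives to the alpha 3 chain. Col6a4, which was dim, read -4.36 on W2, where it was not well above background, -4.18 on W3, -3.62 on K4 and -3.54 on K5, a difference of 0.69 ± 0.28 (limma adjusted p = 0.811). For Col6a6 the values were -0.39, -2.15, -0.35 and -0.38. W3 alone was low, and the groups were only just apart. The difference of 0.91 ± 0.62 came to 0.01 in the low-signal pair and 1.81 in the high-signal pair. Col6a4, Col6a5 and Col6a6 are neighbours on chromosome 9, with probes at 105892911, 105759441 and 105676597 on mm9, and Col6a1 and Col6a2 lie near each other on chromosome 10, with probes at 76171538 and 76058931. All 6 beaded genes were above 0 in both pairs of like signal, where 28.9% of all genes were, and the class median was 0.39 without W3. The fibroblast markers lay in the same direction: 11 of 12 were above 0, with a median difference of 0.50, and their summed level was 1410 and 822 on W2 and W3 against 1150 and 1550 on K4 and K5. The fibroblast median was 0.12 in the low-signal pair and 0.68 in the high-signal pair, with 7 of 12 markers above 0 in both. For the beaded genes the medians were 0.60 and 0.57. W3 was the lowest array for both lists, and the part of fibroblast content in the type VI values was not tested.

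**Figure D2:**
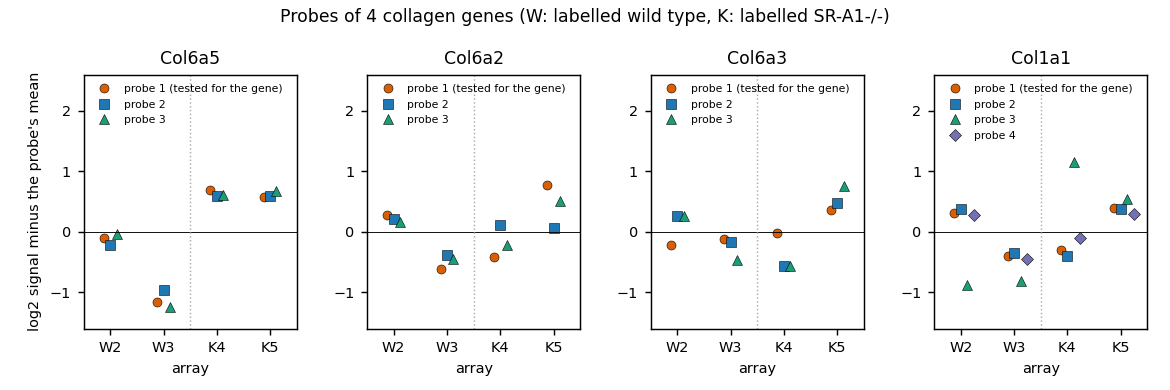
Log2 signal of each tested probe minus its own mean over the 4 arrays, for Col6a5, Col6a2, Col6a3 and Col1a1, with the arrays labelled wild type left and those labelled SR-A1-/- right of the dotted line. The 3 probes of Col6a5 run together with W3 lowest, whereas 1 of the 4 probes of Col1a1, in another transcript, departs from the rest.

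The major fibrillar chains differed little between the labels. Col1a1, which encodes the alpha 1 chain of type I collagen, read 8.12 on W2, 7.40 on W3, 7.50 on K4 and 8.19 on K5, and Col1a2, its alpha 2 partner, read 9.42, 8.57, 8.64 and 9.36. Col3a1, the chain of type III collagen, read 8.11, 7.47, 7.47 and 8.10. In each, W2 and K5 were high and W3 and K4 low, so each label held 1 high and 1 low array. The differences were 0.08 ± 0.42 for Col1a1, 0.01 ± 0.45 for Col1a2 and 0.00 ± 0.39 for Col3a1, with 95% intervals of -0.99 to 1.16, -1.14 to 1.16 and -1.02 to 1.01. Such wide intervals do not show that the levels were alike. Between arrays of like signal the differences were 0.07 and 0.10 for Col1a1, -0.06 and 0.08 for Col1a2 and 0.00 and 0.00 for Col3a1. The gap between the 2 arrays of 1 label, as between 9.42 and 8.57 for Col1a2, was wider than each of these differences at like signal. The direction of Col3a1 and Col1a2 turned with the scaling, with Col3a1 at 0.12 under quantile normalisation and Col1a2 at -0.04 under median scaling.

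Types V and XI form the core on which these fibrils start. Col5a1 read 5.29 and 5.11 against 5.18 and 5.36, a difference of 0.07 ± 0.28 with a 95% interval of -0.66 to 0.80. Col5a2 read 1.17 and 1.34 against 1.41 and 1.53, and its groups did not overlap, but the difference was 0.22 ± 0.28. Col5a3 and Col11a1 differed by -0.08 ± 0.43 and -0.22 ± 0.56. Col11a2 read -3.22, -4.12, -5.72 and -3.18, was not well above background on K4, and differed by -0.78 ± 0.90. Without K4 that difference was 0.48, so its direction rested on 1 array.

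Col24a1 and Col2a1 were the fibrillar members with the smallest p beside Col11a2. Col24a1, a minor fibrillar chain known from bone and cornea, was well above background on W2 and W3, at -3.38 and -3.86, and not on K4 and K5, at -6.01 and -5.22. Both arrays labelled SR-A1-/- were lower, with differences of -1.84 and -2.15 in the pairs of low and high signal, and limma gave -2.0 ± 0.40 (adjusted p = 0.377). Against the lowest signal called above background on K4 and K5, the gene was 2.21-fold lower. That is not a strict bound, since a probe above that signal can be uncalled. Col10a1 on K5 was so at -4.40, where the lowest called signal was -4.49. It lies on chromosome 3, with its probe at 145214473 to 145214532 on mm9, and has 1 tested probe. Col2a1, the chain of cartilage collagen, read 2.61 and 2.37 against 2.74 and 3.43, a difference of 0.59 ± 0.36 (limma adjusted p = 1). Of 10 chondrocyte markers 7 were tested, with a median difference of 0.53 and summed levels of 41.5 and 30.6 against 64.9 and 95.4. Of the 7, 4 were above 0 and 3 below (Hapln1, Sox9 and Acan), and the median was 1.78 in the low-signal pair and -0.33 in the high-signal pair. Their part in the Col2a1 values was not tested, and Lect1, Matn1 and Ucma were above background on no array. The remaining member, Col27a1, differed by -0.11 ± 0.31, and its second probe read -7.05 on W3 alone.

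Of the 6 basement membrane chain genes 4 had differences below 0 and 2 above, with groups apart in 2 of the lower and 1 of the higher. Over all genes the groups were apart in 13.7% on the lower side and 16.1% on the higher. Col4a1, the alpha 1 chain of the common type IV network, read 5.02 on W2, 4.73 on W3, 3.78 on K4 and 4.46 on K5. K4 was lowest, both arrays labelled SR-A1-/- were below both others, and the difference was -0.75 ± 0.36 (limma adjusted p = 0.9). It was -0.56 in the low-signal pair and -0.95 in the high-signal pair. Col4a2, the partner of Col4a1, read 4.62 and 3.98 against 3.27 and 4.38. Its groups overlapped, the difference was -0.47 ± 0.49, and without K4 it was 0.08. The genes start 21 bases apart on opposite strands in the RefSeq annotation of GRCm38.p6. The ratio of Col4a1 to Col4a2 differed by -0.28 with overlapping groups.

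Col4a6, a chain of the smooth muscle basement membrane, read 4.38 and 4.44 against 3.89 and 3.95. The groups were narrow and did not overlap, and the difference was -0.49 ± 0.27 (limma adjusted p = 0.985). Col4a5, which pairs with Col4a6 and starts 1343 bases from it on the other strand, read 3.11 and 3.32 against 3.25 and 3.16, a difference of -0.01 ± 0.28. Col4a3 and Col4a4, chains known from the glomerulus and lung, differed by 0.28 ± 0.32 and 0.17 ± 0.37. The class median was -0.24, with Col4a5 the nearest of the 4 to 0. In 3 of the 6, Col4a1, Col4a2 and Col4a6, the difference was below 0 in both pairs of like signal, where 31% of all genes were. The smooth muscle markers lay the same way: 10 of 10 were below 0, with a median of -0.46, and their summed level was 1970 and 1450 on W2 and W3 against 1140 and 1370 on K4 and K5. The part of smooth muscle content was not tested.

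**Figure D3:**
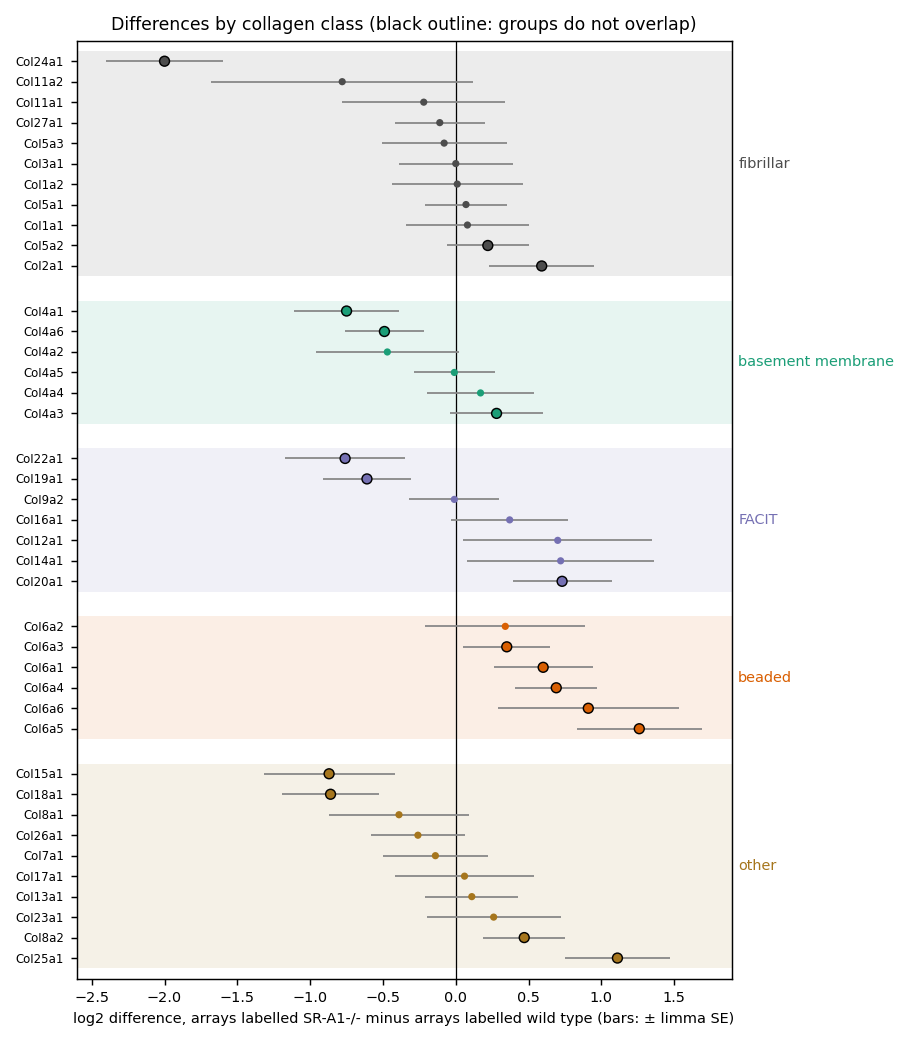
Log2 difference of each tested collagen gene, arrays labelled SR-A1-/- minus arrays labelled wild type, with bars for the limma standard error and a black outline where the groups do not overlap. All 6 beaded genes lie above 0, from 0.34 to 1.26. Col24a1 is drawn at its measured -2.0 although K4 and K5 were not above background. Against the lowest signal called above background on those arrays it was 2.21-fold lower.

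Col18a1 and Col15a1 encode the multiplexins, proteoglycan collagens of the basement membrane zone, and both read lower on the arrays labelled SR-A1-/-. Col18a1, the source of endostatin, read 6.69 on W2, 6.35 on W3, 5.40 on K4 and 5.91 on K5. No array of one label reached the other group, and the difference was -0.86 ± 0.33, with a 95% interval of -1.72 to -0.01 (limma adjusted p = 0.79). Within the pairs of like signal it was -0.79 and -0.94. Col15a1 read -0.12 and 0.79 against -0.87 and -0.20, with the groups only just apart. Its difference was -0.87 ± 0.45 (limma adjusted p = 0.939), made up of -0.08 in the low-signal pair and -1.66 in the high-signal pair, and its second probe gave -0.61 ± 0.33. The 10 endothelial markers, 5 above 0 and 5 below, had a median difference of 0.17, with summed levels of 115 and 83.8 against 129 and 93.8. Their median was -0.14 in the low-signal pair and 0.57 in the high-signal pair, and the part of endothelial content was not tested.

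**Figure D4:**
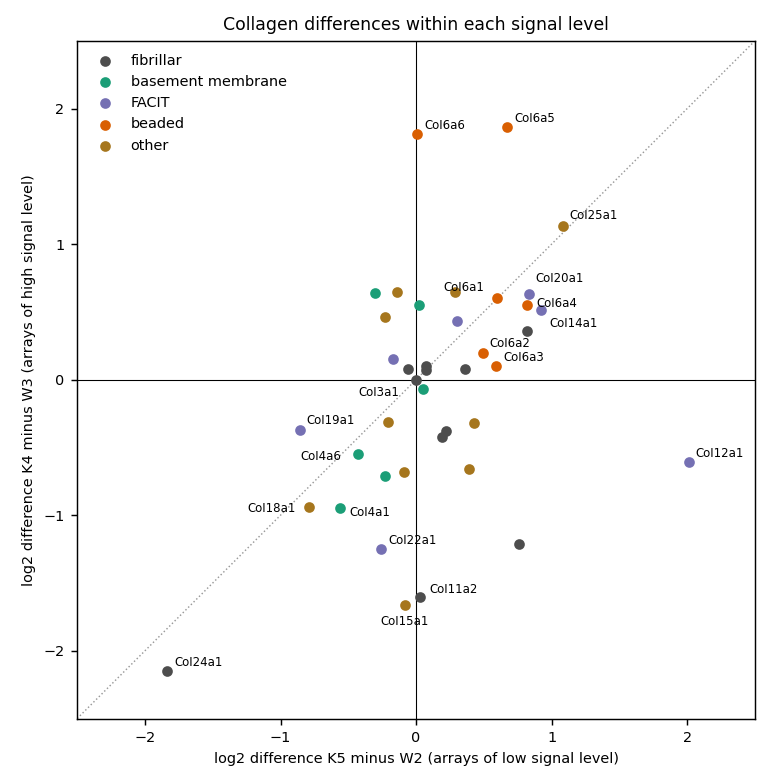
Log2 difference of each tested collagen gene in the low-signal pair of arrays (K5 minus W2, horizontal) and in the high-signal pair (K4 minus W3, vertical), coloured by class, with a dotted line of equality. Col18a1, Col4a1 and Col24a1 lie below 0 on both axes and all 6 beaded genes above 0 on both, while Col6a6 and Col15a1 are near 0 on the horizontal axis.

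Among the other chains outside the 4 named classes, Col25a1, a transmembrane collagen known from neurons, was not well above background on W2 and W3, at -5.28 and -5.84, and was so on K4 and K5, at -4.71 and -4.20. Its difference was 1.11 ± 0.36 (limma adjusted p = 0.698), but against the lowest signal called above background on W2 and W3 it was only 1.13-fold higher. Type VIII is a short-chain collagen of vessel walls that smooth muscle and endothelial cells make. Its chain gene Col8a1 read 4.98 and 4.43 against 3.75 and 4.88, with overlapping groups and a difference of -0.39 ± 0.48 that was 0.18 without K4. Col8a2 read -1.44 and -1.70 against -1.05 and -1.15, a difference of 0.47 ± 0.28 with groups that did not overlap. The ratio of Col8a1 to Col8a2 was 6.42 and 6.13 against 4.80 and 6.04 on the log2 scale, a difference of -0.86, with K4 far below the rest. The other 5 tested members of the class, Col7a1, Col13a1, Col17a1, Col23a1 and Col26a1, differed by -0.26 to 0.26, with overlapping groups in each.

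FACIT chains differed in both directions. Col20a1 read -0.61 and -0.94 against -0.31 and 0.22, a difference of 0.73 ± 0.34 (limma adjusted p = 0.884) with groups apart. Col14a1 (undulin), which binds fibrils in the adventitia, read 1.0, -0.08, 0.43 and 1.91, so that K5 was high and W3 low, and differed by 0.72 ± 0.64. Col12a1 differed by 0.70 ± 0.65, with 2.01 in the low-signal pair and -0.61 in the high-signal pair. Col16a1 read 5.39 and 4.68 against 5.11 and 5.69, a difference of 0.37 ± 0.40, but its second tested probe gave -0.26 ± 0.57. On the lower side, Col19a1 read -0.80 and -0.94 against -1.30 and -1.67 and differed by -0.61 ± 0.30 (limma adjusted p = 0.905), but another of its probes gave 0.13 ± 0.49. Col22a1, a chain of tissue junctions such as that of muscle and tendon, read -1.61 and -1.59 against -2.84 and -1.87 and differed by -0.76 ± 0.41, with 0.14 ± 0.67 on its second probe. Col9a2 differed by -0.01 ± 0.31. The FACIT median of 0.37 was 0.05 when the probes of a gene were averaged and -0.02 without K5. The brightest probes of Col9a1, Col9a3, Col10a1 and Col28a1 were above background on no array, and these genes have no fold. The other probe of Col28a1 was above background on 1 array, W3, at -4.90.

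Partner chains of 1 molecule were set against each other within each array, as were Col3a1 and Col1a1, which belong to different molecules. A ratio of probes says nothing of how much of each chain there is, so only its change between arrays is read. The log2 ratio of Col1a1 to Col1a2 was -1.30 on W2, -1.17 on W3, -1.15 on K4 and -1.18 on K5. It spanned a far narrower range than either gene, and differed by 0.07 between the labels, or by 0.60 when the probes of a gene were averaged. The log2 ratio of Col3a1 to Col1a1 was -0.01 and 0.07 against -0.03 and -0.08, with groups that just missed each other. Its difference was -0.09, or -0.63 with averaged probes. In both averaged ratios Col1a1, at 0.49, takes in a dim probe of a separate transcript. That probe differed by 1.70, and the bright Col1a1 probes by 0.08, -0.02 and 0.18. For Col5a1 to Col5a2 the difference was -0.15, for Col6a1 to Col6a2 0.26 and for Col6a3 to Col6a1 -0.25, each with overlapping groups.

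Different probes of a gene did not always agree. Of 19 members with several tested probes, 10 had all probes in 1 direction and 9 in both. At the level of probes, 8 of 67 tested member probes had an unadjusted p under 0.05, against 6.21% of all 35102 probes. They include a dim probe of a separate Col1a1 transcript (ENSMUST00000148593, chr11:94800628-94800687), which read -4.68 and -4.61 against -2.64 and -3.26, a difference of 1.70 ± 0.34 (limma adjusted p = 0.389), while the 3 bright Col1a1 probes gave 0.08, -0.02 and 0.18. A dim probe of a separate Col11a1 transcript (ENSMUST00000138680) gave -1.30 ± 0.48. All 3 probes of Col6a5 were among the 8 as well, and probes of 1 gene on the same arrays are not independent.

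Genes that process and bind collagen gave a few single differences and no shared direction. None of the lists had a member past an adjusted p of 0.05, and 3 of the 75 genes tested had an unadjusted p under 0.05, a share below the 6.29% of all genes. Of 6 cross-linking genes 1 was above 0 and 5 below, with a median of -0.25 that ran from -0.42 without W3 to -0.05 without W2. Loxl4, a lysyl oxidase that oxidises lysines for cross-linking, read -1.92 and -2.06 against -0.88 and -0.75, a difference of 1.17 ± 0.28 (limma adjusted p = 0.485) that was 1.17 in each pair of like signal. Tgm2, a transglutaminase of the matrix, read 5.90 and 5.85 against 5.21 and 5.10, a difference of -0.72 ± 0.27 (limma adjusted p = 0.778). Both arrays of each label lay close together for these genes. Lox, the main lysyl oxidase of the aorta, read 3.60 and 4.01 against 3.54 and 2.89 and differed by -0.59 ± 0.36.

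Of 14 genes for proteoglycans and partners that bind fibrils, 9 were above 0 and 5 below, with a median of 0.19. Aspn (asporin), a leucine-rich proteoglycan that binds collagen and calcium, read -0.01 and -0.48 against 0.82 and 0.65, a difference of 0.98 ± 0.31 (limma adjusted p = 0.689). Its relatives Omd (osteomodulin) and Lum (lumican), which is also among the fibroblast markers, differed by 0.70 ± 0.32 and 0.58 ± 0.29, with no overlap. Of 10 genes for propeptide removal 6 were tested, 5 above 0 and 1 below, with a median of 0.52 that was 0.14 without W3. The enhancer of procollagen C-proteinase, Pcolce, read 6.78 and 6.39 against 7.13 and 7.14, a difference of 0.55 ± 0.30. Pcolce2, its relative, differed by 0.84 ± 0.47, and Adamts2, which removes the amino propeptide, by 0.50 ± 0.30.

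The genes that hydroxylate and glycosylate chains, 15 tested, split into 8 above and 7 below 0 with a median of 0.04. P3h2, a prolyl 3-hydroxylase that acts on type IV chains, read 0.91 and 0.42 against -0.29 and 0.05, a difference of -0.78 ± 0.33 (limma adjusted p = 0.84), while Ppib and P4hb differed by 0.30 ± 0.28 and 0.28 ± 0.28. For folding and export, 3 of 10 genes were above 0 and 7 below, with a median of -0.13. Its members with the smallest p, Fkbp9, Sec23a and Creb3l2, differed by 0.38 ± 0.29, -0.27 ± 0.28 and -0.27 ± 0.29. Partners of the basement membrane had a median of 0.00 over 13 genes. The laminin chain gene Lama5 read 4.57 and 4.53 against 3.94 and 3.78, a difference of -0.69 ± 0.28 (limma adjusted p = 0.805), Lama3 differed by -0.57 ± 0.30, and Nid1 (nidogen), which links laminin to type IV collagen, read 4.31 and 4.20 against 5.11 and 4.72, a difference of 0.66 ± 0.30. Of 11 collagen receptors 7 were above 0 and 4 below. The integrin chain genes Itga10 and Itga11 differed by -0.63 ± 0.32 and 0.44 ± 0.32, and Lair1, an inhibitory collagen receptor of leukocytes, read -3.55 on W2, -0.90 on W3, 0.07 on K4 and -1.01 on K5, a difference of 1.75 ± 0.95. W2 was the low array: without it the difference was 0.43, and without W3 it was 3.08 (limma adjusted p = 0.0291), where the other alternatives gave adjusted p-values of 0.341 or above.

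**Figure D5:**
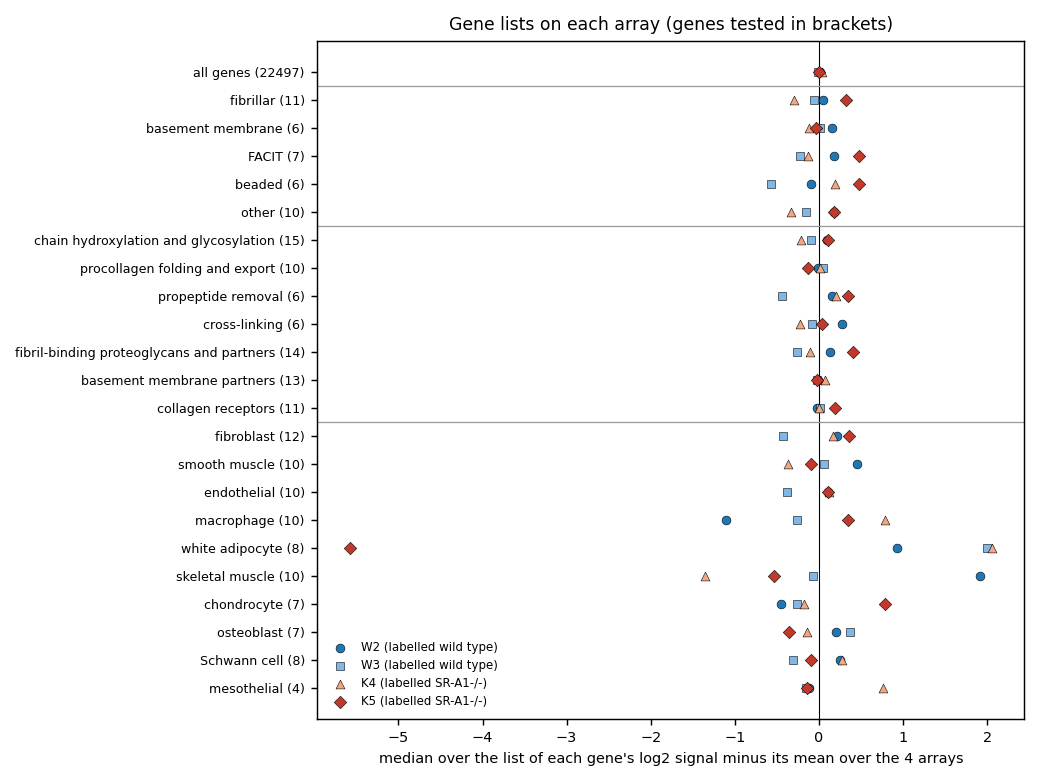
Median over each gene list of the gene's log2 signal minus its own mean over the 4 arrays, for all genes, the collagen classes, the collagen pathway lists and the cell type marker lists, with the number of genes tested in brackets. The collagen classes stay within 0.57 of 0 on each array, whereas the white adipocyte list reads -5.58 on K5 and the macrophage list -1.11 on W2.

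The promoters of Col1a2 and Col3a1, whose levels shared the order of arrays, are shown for comparison, as 250 bases before the start given by RefSeq on GRCm38.p6. Capitals mark matches, on either strand, to CCAAT (the letters of the CCAAT box), to TATAAA (those of the TATA box) and to GGGCGG (those of the GC box).
Col1a2, chr6:4505368-4505617, plus strand: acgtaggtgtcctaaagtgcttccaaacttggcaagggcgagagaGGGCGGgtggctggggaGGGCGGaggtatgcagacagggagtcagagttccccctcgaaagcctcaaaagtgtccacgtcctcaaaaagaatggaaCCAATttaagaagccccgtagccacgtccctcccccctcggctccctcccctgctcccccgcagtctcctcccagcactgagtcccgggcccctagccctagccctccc
Col3a1, chr1:45311288-45311537, plus strand: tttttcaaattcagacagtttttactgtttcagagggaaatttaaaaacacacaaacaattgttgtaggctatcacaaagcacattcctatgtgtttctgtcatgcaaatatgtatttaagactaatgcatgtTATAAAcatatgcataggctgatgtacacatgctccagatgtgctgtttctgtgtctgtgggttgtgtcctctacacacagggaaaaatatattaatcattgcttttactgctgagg
The Col1a2 window holds 1 CCAAT and 2 GGGCGG matches, and the Col3a1 window holds 1 TATAAA match and neither of the others. Promoter windows were found for 35 of the 44 members, 38 windows in all. In those windows, CCAAT occurs in 34.2%, TATAAA in 13.2% and GGGCGG in 57.9%, against 33.8%, 12.4% and 32.7% of all 32851 windows of that length. These are matches of letters and were not tied to any difference above.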

How the data were processed

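The processed signal is an intensity that Agilent Feature Extraction 12.0.3.1 made, per the file headers, by background subtraction and detrending; the submitters' processing notes name version 10.7, and limma with no role. Per the file headers, the mean spot signal and the local background median are raw intensity, and flags take the values 0 and 1. The authors deposited a table of values on a log2 scale. The arrays share 1 slide and 1 scan time.

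Each log2 signal was set relative to the 75th percentile of its array, leaving out controls. Outlier spots were dropped, spots of a probe were averaged, and probes well above background on at least 2 arrays were kept (35102), with the brightest probe standing for a gene. limma 3.58.1 (lmFit, eBayes) compared the groups in R 4.3.3 (package data.table, version 1.17.8), two-sided, with Benjamini-Hochberg adjustment over all 22497 genes; the script was checked on simulated data. Figures used matplotlib 3.10.9. For genes above background in 1 group only, a fold was taken from the brighter group's mean. It was set against the lowest signal called above background on each dim array, or the probe's own where higher. Such a fold is not a strict bound. Genes were named as the 3 tested members of each class or list with the smallest p, members with a log2 difference of at least 1 and groups apart, and both chains of each ratio; the genes and probes named beyond these were chosen after their values were seen. The members and lists were chosen with earlier results of these data known. Alternatives were other scalings, normexp with an offset of 50, other filters, averaging over the probes of a gene, a trend with intensity, the deposited values, signal level as a block and leaving out each array.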

Additional observations from a re-analysis of the deposited data

How the results depend on the processing

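The count of members past an adjusted p of 0.05 was 0 under all 14 alternatives. Over these the beaded median stayed between 0.39 and 0.86 and the basement membrane median between -0.29 and -0.13. Col6a5 (0.74 to 1.79), Col18a1 (-1.12 to -0.61) and Col4a1 (-1.10 to -0.41) kept their signs. The dim Col24a1 (-2.39 to -0.24), Col25a1 (0.09 to 1.38) and Col6a4 (0.04 to 0.78) kept theirs under 13, and could not be given where all 4 arrays had to be above background. Members with an unadjusted p under 0.05 numbered 2 of 36 tested with that filter, when 5.89% of all genes had one. With signal level as a block they numbered 9 of 40, when 12.5% of all genes had one. Groups were apart in 27 to 31 of 40 members with an array left out, when they were in 60.3% to 70.3% of all genes. The FACIT median was 0.20 with normexp, -0.01 with no filter and 0.05 with the mean of a gene's probes, and -0.02 to 0.66 with an array left out. The same ranges were -0.26 to 0.32 for fibrillar and -0.43 to 0.14 for other chains. Pathway genes with an unadjusted p under 0.05 numbered, of 75, 13 with normexp (6.37% of all genes), 5 with the mean of probes (6.66%), 5 with an intensity trend (6.44%), 10 with the block (12.5%), and 1 to 6 with an array left out (6 without W2, 1 without K4 and 1 without K5, when 9.69%, 4.64% and 3.89% of all genes had one). Lair1 alone of the pathway genes passed an adjusted p of 0.05 under an alternative, without W3. With an array left out the pathway medians ran from 0.14 to 0.70 for propeptide removal (0.25 with no filter), -0.42 to -0.05 for cross-linking, 0.00 to 0.46 for fibril-binding partners, -0.15 to 0.20 for hydroxylation and glycosylation and -0.24 to -0.01 for folding and export. Signs turned for Col3a1 under quantile (0.12), cyclic loess (0.07) and normexp (0.11), and for Col1a2 under median scaling (-0.04) and the mean of probes (-0.12). With an array left out they turned for Col3a1 (-0.32 to 0.32), Col1a2 (-0.42 to 0.44), Col1a1 (-0.28 to 0.44), Col5a1 (-0.02 to 0.16), Col6a2 (-0.25 to 0.94), Col11a2 (-2.05 to 0.48), Col4a2 (-1.03 to 0.08) and Col8a1 (-0.95 to 0.18). The cause was not tested.

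Slide as a block was not run, since all arrays share 1 slide. No paired analysis was possible because the labels' numbers differ between the groups; the pairs of like signal, and the block on them, come from the arrays' signal and not from the labels. A lone array was assumed to vary like the other group. Spots near background and the number of arrays limit the precision.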
